A study of Mus musculus with 6 samples.

Results

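This account covers 10 genes of TGF-beta, BMP and GDF signalling, chosen by name as ligands, receptors and Smads of the pathway. All 10 were found among the 17680 gene symbols of the count tables, and all 10 passed the low-count filter that left 14219 genes for testing. The samples were whole kidneys of wild-type C57BL/6 mice aged 6 to 8 weeks, taken 24 h after an intraperitoneal injection. LPS mice (n = 3) received lipopolysaccharide, the endotoxin of Gram-negative bacteria, which is used to mimic sepsis, and Control mice (n = 3) received PBS. By the labels no mouse carried a transgene or deletion. The sources used here give neither the dose of LPS nor the sex of the mice. The comparison asks which kidney transcripts differ after LPS. CPM below are read counts scaled to library size with TMM factors, and FPKM are the deposited read densities, which also divide by gene length.

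Ligands of the TGF-beta superfamily are secreted dimers that bring type II and type I receptor kinases together, and the type I kinase then phosphorylates Smad proteins that enter the nucleus. TGF-betas and activins signal mainly through Smad2 and Smad3, BMPs through Smad1, Smad5 and Smad9, and Smad6 and Smad7 are inhibitors that the pathway itself induces. In the kidney, TGF-beta1 is known for driving matrix deposition after injury, BMP7 for sustaining tubular epithelium, and GDF15, a distant member that acts on a brainstem receptor, is a stress-induced hormone.

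The 6 libraries held between 29097558 and 33454344 counts. Kidney markers were present in all of them, and no marker list had a gene at 0 in every library, but marker levels differed between the groups. The 9 proximal tubule markers were all lower, with a summed level of 2020 to 2172 CPM in LPS and 13370 to 14970 CPM in Control libraries, and 4 of 5 thick ascending limb markers were lower (4597 to 4787 and 7911 to 8482 CPM). All 8 neutrophil markers were higher, at 72.6 to 103.9 CPM in LPS and 3.29 to 3.75 CPM in Control libraries. Monocyte and macrophage markers (4 higher and 3 lower of 9) summed to 175.5 to 193.5 and 115.5 to 188.9 CPM, and fibroblast and pericyte markers (1 higher and 3 lower of 7) to 300.9 to 460.6 and 320.8 to 500.3 CPM. Endothelial markers (2 of 6 lower) summed to 220.5 to 281.1 and 274.8 to 347.6 CPM, and platelet markers (2 of 3 tested lower) to 4.79 to 5.93 and 7.79 to 10.4 CPM. Lymphocyte markers (1 higher and 4 lower of 6 tested) summed to 3.05 to 6.30 and 6.28 to 17.7 CPM, with the highest level in Control replicate 1. LPS replicate 2 stood apart through 9 seminal vesicle genes, which took 3.66% of its counts and at most 0.00457% of the counts of any other library. The part of these shifts in the values of the 10 genes was not tested.

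Of the 10 genes, 6 rose and 2 fell in LPS kidneys. Over all tested genes 25.7% rose and 24.8% fell, together 50.5%. Inhbb and Gdf15 rose about 13.1-fold and 8.68-fold, while Tgfb1, Tgfbr1, Tgfbr2 and Smad3 rose between 1.28-fold and 1.73-fold. Tgfb2 and Smad7 fell, and Tgfb3 and Bmp7 did not pass the test. Calls use edgeR's quasi-likelihood test, two-sided, with Benjamini-Hochberg adjustment over all 14219 genes and a threshold of 0.05. A log2 fold change is LPS over Control, and ± after one is its SE throughout. The median log2 fold change of the 10 genes was 0.37, beside 0.01 for all tested genes. LPS and Control libraries did not overlap for 8 of the 10 genes, beside 60.2% of all tested genes. A change of at least 2-fold past the threshold was found for 2 of the 10 upward (8.24% of all genes) and for 0 of the 10 downward (9.62% of all genes, with DESeq2 also 0 of the 10).

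**Figure D1:**
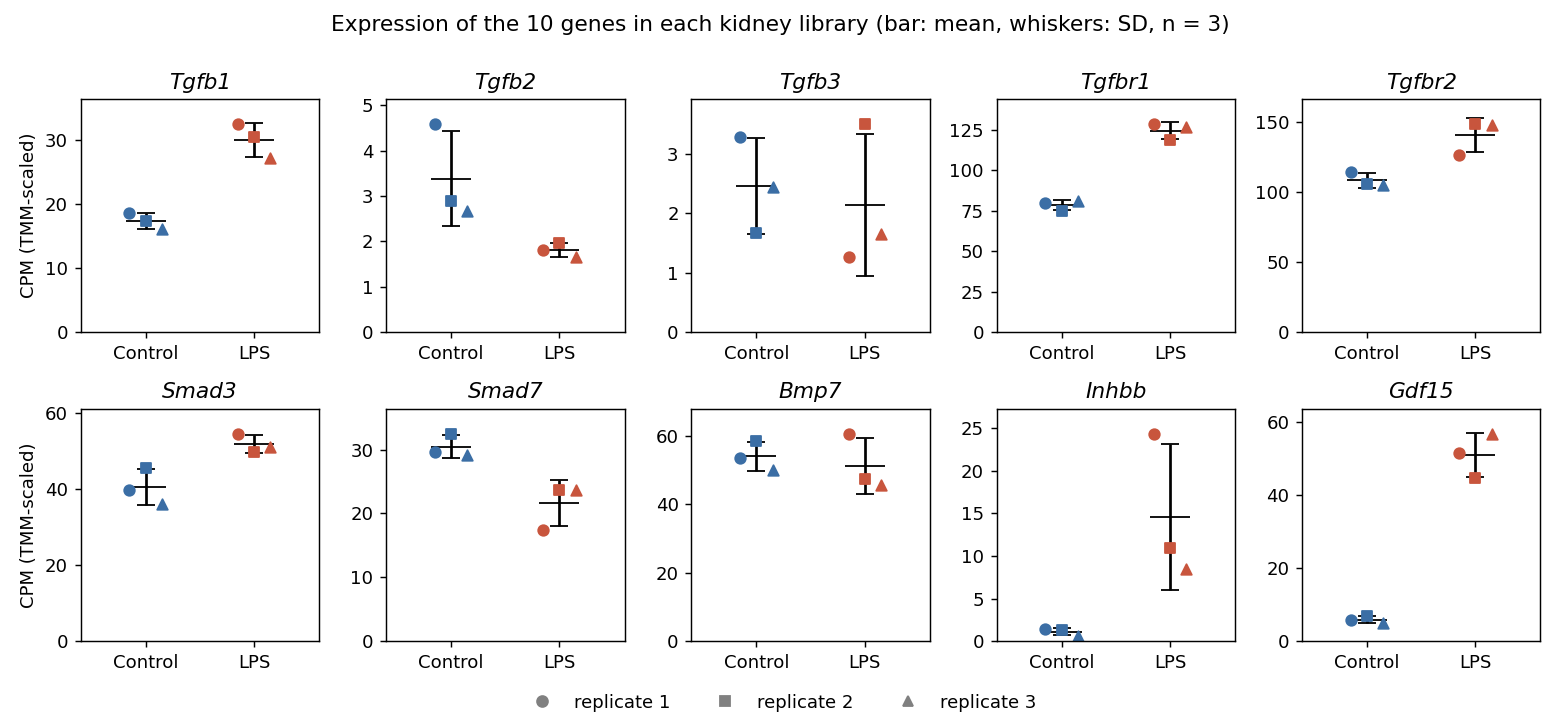
Each panel plots 1 gene in CPM (linear axis from 0) for the 3 Control and 3 LPS libraries, with symbols for the replicate number, a bar for the mean and whiskers for the SD. Gdf15 lies between 44.7 and 56.8 CPM in LPS and at most at 6.84 CPM in Control libraries, while the groups overlap for Tgfb3 and Bmp7.

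The upstream sequences of Tgfb1 and Tgfb2 are shown because these TGF-beta isoforms moved in opposite directions. Both come from the RefSeq promoter table of assembly GRCm38.p6, in which 7 of the 10 genes were found by symbol (not Tgfb3, Smad7 and Bmp7), and each is the 250 bases before the annotated gene start, 5′ to 3′ on the gene's strand. The Tgfb1 sequence is chr7:25686752-25687001 (plus strand), with GC boxes (GGGCGG on either strand) in capitals. The Tgfb2 sequence is chr1:186705990-186706239 (minus strand), with TATAAA in capitals.
Tgfb1: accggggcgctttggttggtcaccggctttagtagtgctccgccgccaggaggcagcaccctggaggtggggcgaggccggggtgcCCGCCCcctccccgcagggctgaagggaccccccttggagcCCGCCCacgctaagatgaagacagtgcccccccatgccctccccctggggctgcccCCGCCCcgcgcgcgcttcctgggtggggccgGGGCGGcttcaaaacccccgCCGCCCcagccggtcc
Tgfb2: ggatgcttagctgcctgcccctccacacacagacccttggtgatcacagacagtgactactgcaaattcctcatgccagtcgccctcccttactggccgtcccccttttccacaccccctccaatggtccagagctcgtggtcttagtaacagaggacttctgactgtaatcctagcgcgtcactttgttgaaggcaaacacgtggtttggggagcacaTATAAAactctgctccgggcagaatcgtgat
The Tgfb1 sequence held 5 matches to the GC box and none to TATAAA, and 75.2% of its bases were G or C. The Tgfb2 sequence held TATAAA with its first base 31 bases before the gene start and no GC box, at 53.6% G or C. Of 32851 upstream sequences of the same length, 32.7% held a GC box and 12.4% held TATAAA on either strand. The sequences of the 7 genes were also searched on both strands for AP-1 (TGANTCA, in 6.75% of all), the cAMP response element (TGACGTCA, 1.55%), an ATF4 element (TGATGNAA, 3.45%), the palindromic Smad box (GTCTAGAC, 0.167%) and the kappaB motif (7.25%). The only match of these 5 motifs was a kappaB match in Tgfb1, with its first base 140 bases before the gene start and clear of the GC boxes. A match is a match of letters only, and its absence from these windows says nothing about a factor.

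Among the TGF-beta ligands, Tgfb1, the isoform best known for renal fibrosis, had 18.6, 17.3 and 16.02 CPM in Control replicates 1, 2 and 3, and LPS replicates 1, 2 and 3 had 32.4, 30.4 and 27.1 CPM. Every LPS library lay above every Control library. The log2 fold change was 0.79 ± 0.10 (SE), a 1.73-fold rise with an adjusted p of 0.000232 (edgeR). In bulk kidney RNA, a change in the share of cells that express a gene and a change in RNA per cell cannot be told apart.

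Tgfb2, an isoform of development and epithelium, had 4.58, 2.90 and 2.66 CPM in Control replicates 1, 2 and 3, and LPS replicates 1, 2 and 3 had 1.81, 1.96 and 1.65 CPM. The groups did not overlap, and Control replicate 1 lay above the other Control libraries. Among Control libraries it had the highest fibroblast and pericyte (500.3 CPM), endothelial (347.6 CPM), monocyte and macrophage (188.9 CPM) and lymphocyte (17.7 CPM) markers. Its podocyte, collecting duct and neutrophil markers were also the highest, and its proximal tubule, thick ascending limb and distal convoluted tubule markers the lowest. The part of these shifts in its Tgfb2 level was not tested. Tgfb2 fell by a log2 fold change of -0.90 ± 0.28 (SE), with an adjusted p of 0.0247 (edgeR). That call was lost when Control replicate 1 was left out (-0.62, edgeR adjusted p = 0.0912), as it was for LPS replicate 1 (-0.90 and 0.0514) or LPS replicate 3 (-0.84 and 0.0685). Over all alternatives the adjusted p (edgeR, DESeq2 or limma) ranged from 0.0101 to 0.0912. On log2(FPKM + 1), which shrinks the change of low genes, the difference was -0.29 with an adjusted p of 0.0356 (limma).

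Tgfb3, a further isoform, stood at 3.28, 1.66 and 2.43 CPM in Control and at 1.26, 3.49 and 1.65 CPM in LPS replicates 1, 2 and 3. The groups overlapped, because LPS replicate 2 held the highest level of all 6 libraries LPS replicate 1 the lowest, and LPS replicate 3 lay level with Control replicate 2. The log2 fold change was -0.20 ± 0.42 (SE, adjusted p = 0.717, edgeR), and leaving out LPS replicate 2 gave -0.75 (edgeR adjusted p = 0.141). LPS replicate 2 is the library with the seminal vesicle transcripts, and their part in its Tgfb3 level was not tested. Without Control replicate 1 or LPS replicate 1 the sign of Tgfb3 turned (0.06 and 0.07).

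Read per length, Tgfb1 made up most of the TGF-beta ligand RNA in every library. Its share of the summed FPKM of Tgfb1, Tgfb2 and Tgfb3 was 82.1%, 88.3% and 85.6% in Control and 95.4%, 90.8% and 93.9% in LPS replicates 1, 2 and 3. The LPS mean was 93.3% ± 2.33 and the Control mean 85.3% ± 3.08 (SD, n = 3 each), with no overlap. The exact two-sided permutation p was 0.1, the smallest that 3 against 3 libraries can give. This and 3 other ratios within a library were chosen after the values were seen, and all 4 had p = 0.1 (exact permutation), also after Benjamini-Hochberg adjustment over the 4. With groups that do not overlap no other p is possible, so these p add nothing to the separation seen.

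Inhbb, which encodes the beta B subunit of activin B and inhibin B, changed most of the 10 by edgeR with all libraries. It stood at 1.40, 1.27 and 0.658 CPM in Control and at 24.3, 10.9 and 8.42 CPM in LPS replicates 1, 2 and 3. The groups were far apart, and LPS replicate 1 lay more than 2-fold above the other LPS libraries. The log2 fold change was 3.71 ± 0.45 (SE), with an adjusted p of 0.000166 (edgeR), and 1.84% of tested genes had a larger change in either direction. Without LPS replicate 1 the rise was 8.70-fold in place of 13.1-fold, a log2 fold change of 3.12. Gdf15 ranged from 3.01 to 3.24 over single libraries left out. On log2(FPKM + 1) the log2 fold change of Inhbb was 1.72, below that of Gdf15 at 2.77.

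Inha and Inhba, which encode the inhibin alpha and activin beta A subunits, each had group means under 0.8 CPM in LPS and in Control libraries, with log2 fold changes of -0.01 ± 0.54 and -0.17 ± 0.62 (SE) that did not pass. Inhbc and Inhbe had at most 3 counts in either group and were not tested. These 4 subunit genes are named after their values were seen.

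Gdf15 stood at 5.85, 6.84 and 4.93 CPM in Control and at 51.5, 44.7 and 56.8 CPM in LPS replicates 1, 2 and 3. All LPS libraries were high and close to each other, with an SD of 6.07 CPM around a mean of 51.0 CPM. The log2 fold change was 3.12 ± 0.14 (SE), with an adjusted p of 4.93e-07 (edgeR), the smallest of the 10 genes. It lay between 2.77 and 3.24 over all alternatives.

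The lowest Control level was 6.02% of the level in LPS replicate 2 for Inhbb and 11% for Gdf15, beside at most 0.125% for seminal vesicle transcripts in any library other than LPS replicate 2. Whether seminal vesicle material added to either gene in LPS replicate 2 was not tested, nor was a transfer of its reads to other libraries.

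Bmp7 stood at 53.3, 58.5 and 49.9 CPM in Control and at 60.6, 47.3 and 45.7 CPM in LPS replicates 1, 2 and 3. LPS replicate 1 was the highest of all libraries and LPS replicates 2 and 3 the lowest, so the groups overlapped. The log2 fold change was -0.07 ± 0.12 (SE, adjusted p = 0.618, edgeR). Leaving out LPS replicate 1 gave -0.21 (adjusted p = 0.0783) and leaving out LPS replicate 3 gave 0.0035 (adjusted p = 0.983). Bmp7 is known from podocytes and distal segments, and in these libraries 4 of 4 distal convoluted tubule, 5 of 7 collecting duct and 2 of 5 podocyte markers were lower in LPS kidneys and none of these was higher. The summed levels in LPS and Control libraries were 276.2 to 437.8 and 588.2 to 811 CPM, 507.8 to 721.6 and 701.7 to 921.1 CPM, and 401.2 to 445.2 and 476.7 to 522.2 CPM for these 3 lists. Their part in the Bmp7 value was not tested. The FPKM of Bmp7 divided by that of Tgfb1 was 1.87 ± 0.155 in Control and 1.02 ± 0.0939 in LPS libraries (SD, n = 3 each, no overlap).

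Both receptors rose. Tgfbr1, the type I kinase that phosphorylates Smad2 and Smad3, stood at 79.5, 75.0 and 80.8 CPM in Control and at 128, 119 and 126 CPM in LPS replicates 1, 2 and 3. Its log2 fold change was 0.67 ± 0.08 (SE, adjusted p = 0.000104, edgeR), with the LPS libraries well above the Control libraries.

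Tgfbr2, the type II receptor that binds the ligand first, stood at 114, 106 and 105 CPM in Control and at 127, 148 and 148 CPM in LPS replicates 1, 2 and 3. The groups did not overlap, and LPS replicate 1 came closest to the Control libraries. The log2 fold change was 0.38 ± 0.09 (SE, adjusted p = 0.00673, edgeR). The FPKM ratio of Tgfbr1 to Tgfbr2 was 0.541 ± 0.0306 in Control and 0.664 ± 0.0818 in LPS libraries (SD, n = 3 each), lowest in the LPS group in replicate 2 at 0.597 and highest in the Control group in replicate 3 at 0.577.

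The intracellular pair moved apart. Smad3, the Smad that carries the TGF-beta signal to matrix genes, stood at 39.7, 45.6 and 36.1 CPM in Control and at 54.5, 49.9 and 51.0 CPM in LPS replicates 1, 2 and 3. Its log2 fold change was 0.36 ± 0.09 (SE, adjusted p = 0.0116, edgeR), with no overlap.

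Smad7, which recruits ubiquitin ligases to the type I receptor and so limits the signal, stood at 29.6, 32.5 and 29.2 CPM in Control and at 17.5, 23.6 and 23.7 CPM in LPS replicates 1, 2 and 3. Every LPS library was below every Control library, LPS replicate 1 most. Smad7 fell by a log2 fold change of -0.49 ± 0.13 (SE, adjusted p = 0.00971, edgeR). Within a library the FPKM of Smad7 was close to that of Smad3 in Control kidneys, at a ratio of 0.929, 0.887 and 1.00, and lower in LPS kidneys, at 0.399, 0.590 and 0.579.

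**Figure D2:**
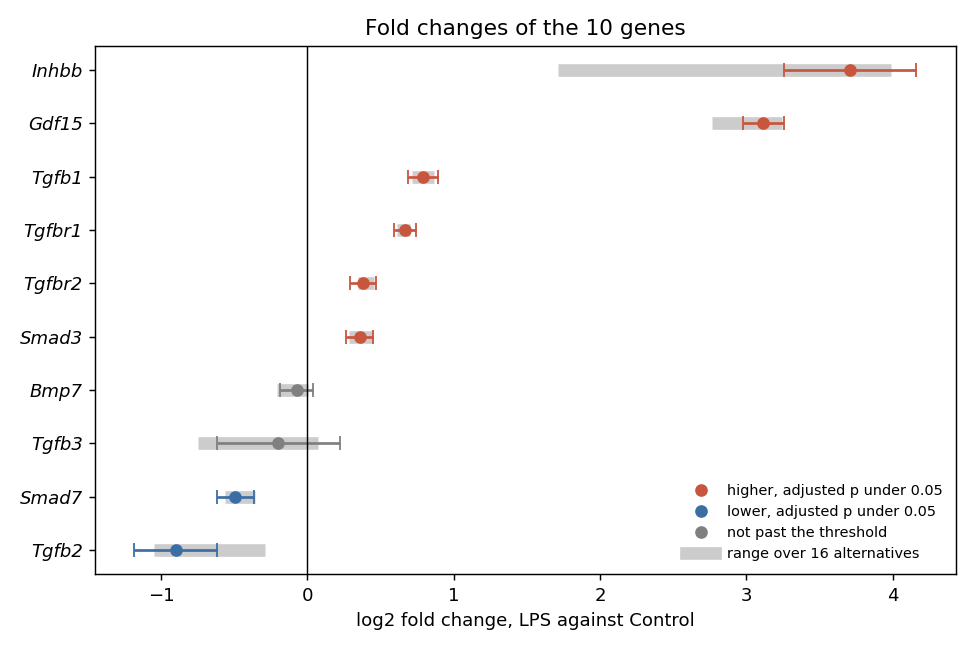
Points are log2 fold changes of the 10 genes with whiskers of 1 SE, and grey bars span the values under 16 alternative analyses. The bars of Tgfb3 and Bmp7 reach across 0, and the bar of Inhbb runs from 1.72 to 3.99.

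Per length, the order of the 10 genes changed through Gdf15 and Inhbb, which moved up, and through Bmp7 and Tgfbr1. Bmp7 lay above Tgfbr1 in Control and below it in LPS kidneys, with no overlap of these 2 genes in either group. In Control kidneys the highest mean FPKM was that of Tgfbr2 (22.7), followed by Bmp7 (14.7), Tgfbr1 (12.3), Tgfb1 (7.92), Smad3 (7.34), Smad7 (6.87), Gdf15 (3.18), Tgfb3 (0.731), Tgfb2 (0.654) and Inhbb (0.262). The ranges of the 3 libraries overlapped between the neighbours Tgfb1 and Smad3, Smad3 and Smad7, and Tgfb3 and Tgfb2. In LPS kidneys Gdf15 (27.4) was next to Tgfbr2 (29.3), with overlapping ranges. Tgfbr1 (19.3), Bmp7 (13.9), Tgfb1 (13.6), Smad3 (9.34), Smad7 (4.84), Inhbb (3.42), Tgfb3 (0.627) and Tgfb2 (0.346) followed, with overlap between Bmp7 and Tgfb1 and between Smad7 and Inhbb.

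**Figure D3:**
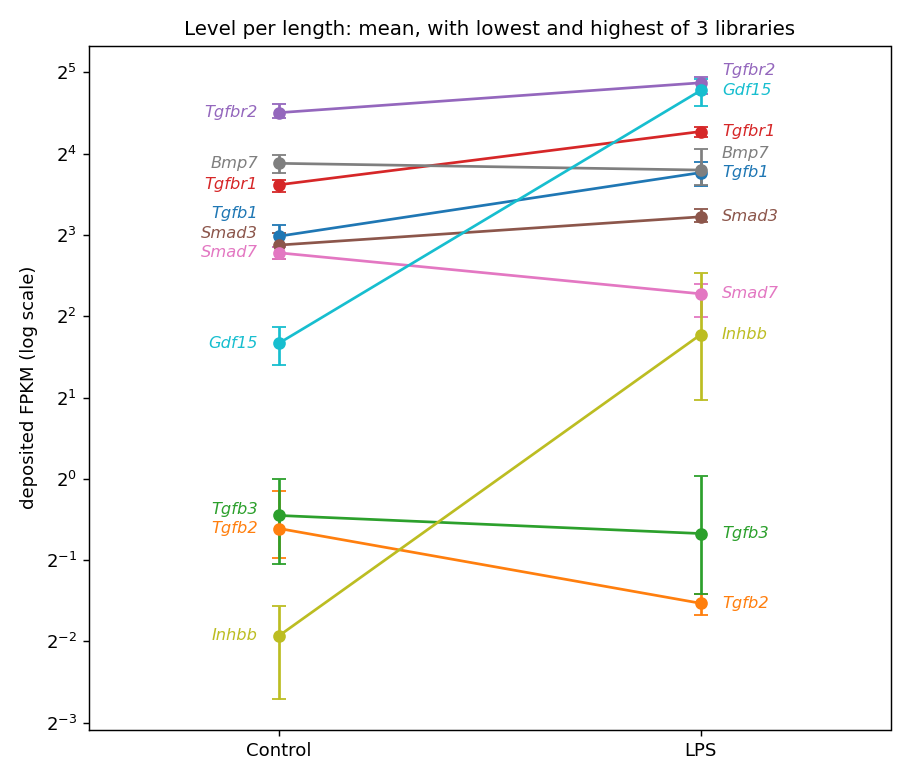
The deposited FPKM (log scale) of each gene is drawn as the mean of 3 libraries per group, with whiskers from the lowest to the highest library and a line from Control to LPS. Gdf15 climbs from 3.18 to 27.4 FPKM and Inhbb from 0.262 to 3.42 FPKM, while Tgfb2 and Smad7 slope down.

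Likeness of pattern was measured as Pearson's r of log2 CPM over the 6 libraries, against 9704 genes with a mean of at least 10 CPM. The genes most like Gdf15 were Pllp (0.9999), Myorg (0.9995) and F2rl1 (0.9995), with log2 fold changes of 1.07, 0.34 and 1.06. Those most like Tgfbr1 were Ptpn23 (0.9996), Ikbkb (0.9988) and Ikbkg (0.9983), at 0.98, 0.47 and 1.01. Those most like Inhbb were Ifnar2 (0.9985), Npat (0.9967) and Marcksl1 (0.9958), at 0.46, 0.16 and 1.75. Pearson's r does not weigh the size of a change, and the genes most like Gdf15 (3.12) and Inhbb (3.71) rose by less than these members. An r above 0.95 was reached by 1364, 1185 and 515 genes for the 3 members, and all points share the same 2 groups, so these values only describe the split between groups and the order of libraries within them.

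Of 27 other ligands of the superfamily 14 were tested, of which 2 rose and 4 fell (beside 25.7% and 24.8% of all tested genes). Their median log2 fold change was -0.26, beside 0.01 for all tested genes. Bmp6, a regulator of hepcidin and iron, rose from 64.6 ± 9.11 to 138 ± 31.5 CPM (SD, n = 3 each), a log2 fold change of 1.09 ± 0.17. Bmp4, a BMP of stroma and vessels, rose by 0.44 ± 0.13, a call that ended when LPS replicate 2, LPS replicate 3 or Control replicate 2 was left out (adjusted p by edgeR 0.0601, 0.0777 and 0.0830). Gdf10 (-1.63 ± 0.21), Bmp2 (-1.13 ± 0.25), Bmp5 (-1.40 ± 0.43) and Gdf7 (-3.60 ± 0.70, 72 counts over the Control and 6 over the LPS libraries) fell. The Bmp5 call ended when LPS replicate 2, LPS replicate 3 or Control replicate 2 was left out (adjusted p by edgeR 0.0874, 0.0656 and 0.107) and with DESeq2 (adjusted p = 0.0607), and Gdf7 stood at -5.32 without LPS replicate 2. On log2(FPKM + 1) the differences shrank to -0.58 for Gdf7, -0.96 for Gdf10, -0.44 for Bmp2 and -0.14 for Bmp5, the last not past the threshold (limma adjusted p = 0.0594), and on log2(FPKM + 0.1) they were -2.26 for Gdf7 and -0.72 for Bmp5. Bmp4, Bmp2 and Bmp5, like other genes below that are outside the 3 of smallest p in their list, were named after their values were seen.

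Apart from Tgfbr1 and Tgfbr2, no tested receptor or co-receptor rose. Of 16 tested, 0 rose (edgeR, also 0 at an unadjusted p under 0.05 and 0 by DESeq2) and 5 fell, with a median of -0.16. Among all tested genes the shares were 25.7% higher and 24.8% lower. Acvr2b, a type II receptor for activins, fell from 25.0 ± 8.53 to 11.4 ± 1.91 CPM (SD, n = 3 each), a log2 fold change of -1.13 ± 0.23, and Control replicate 3 stood above the other Control libraries at 34.8 CPM. Cd109, a co-receptor that restrains TGF-beta signalling (-1.89 ± 0.41), and Eng, the endothelial co-receptor endoglin (-0.56 ± 0.15), fell as well. Acvr1c (-2.19 ± 0.75) and Acvrl1 (-0.41 ± 0.15) also fell, but neither call held for every library left out. Acvr1c did not pass when LPS replicate 2 or 3, or Control replicate 2 or 3, was left out (adjusted p by edgeR 0.0862, 0.108, 0.0512 and 0.185), and without Control replicate 3 its value was -1.15. Acvrl1 did not pass when LPS replicate 1 or 3, or Control replicate 1 or 2, was left out (0.0972, 0.139, 0.130 and 0.128). On log2(FPKM + 1) Cd109 was at -0.19 and Acvr1c at -0.12, and on log2(FPKM + 0.1) at -0.996 and -0.70, and Acvr1c did not pass on either scale (limma adjusted p = 0.199 and 0.129). The number of fallen genes was 3 without Control replicate 2.

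Of 21 other Smads and regulators tested, 7 rose and 4 fell (median 0.13), beside 25.7% and 24.8% of all tested genes. Tgif1, a corepressor of Smads, rose from 15.1 ± 0.782 to 35.6 ± 4.38 CPM (SD, n = 3 each), a log2 fold change of 1.24 ± 0.11, and Smad1, a BMP Smad, rose by 0.90 ± 0.11. The ubiquitin ligases Nedd4l (0.45 ± 0.11) and Smurf1 (0.28 ± 0.08) rose too, as did Skil (0.29 ± 0.10), Strap (0.27 ± 0.09) and Smad4 (0.21 ± 0.07). The adjusted p of Skil, Strap and Smad4 was 0.0367, 0.0311 and 0.0324 (edgeR), and the groups overlapped for Skil. Smurf2, a ubiquitin ligase that works with Smad7, fell (-0.42 ± 0.09), as did Tab1, an activator of the kinase TAK1 (-0.42 ± 0.09), Smad6, the inhibitory Smad of BMP signals (-0.42 ± 0.11), and Zfyve9, which brings Smads to the receptor (-0.25 ± 0.08). Zfyve9 did not pass when LPS replicate 2 or 3, or Control replicate 1 or 3, was left out (adjusted p by edgeR 0.122, 0.0619, 0.0560 and 0.0825). Together 7 genes of this list passed without LPS replicate 2 or Control replicate 3, in place of 11, so genes other than Zfyve9 lost their call too.

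Extracellular antagonists went both ways. Of 16 tested, 6 rose and 4 fell (median 0.25), beside 25.7% and 24.8% of all tested genes. Fstl3, which binds and blocks activins, stood at 9.33, 8.53 and 8.06 CPM in Control and at 17.6, 19.3 and 19.0 CPM in LPS replicates 1, 2 and 3, a log2 fold change of 1.11 ± 0.11. Chrdl2, a chordin-like BMP antagonist, rose by 4.48 ± 0.46, from 10 counts in the Control libraries to 246 in the LPS libraries, and its difference was 0.82 on log2(FPKM + 1) and 2.78 on log2(FPKM + 0.1). Fst (1.01 ± 0.16), Dcn (0.68 ± 0.21) and Nbl1 (0.43 ± 0.15) rose as well. So did Bmper (2.16 ± 0.43), from 25 counts over the Control to 120 over the LPS libraries. LPS and Control libraries overlapped for Dcn and Nbl1 (adjusted p by edgeR 0.0238 and 0.0397). On log2(FPKM + 1) 4 genes of this list rose (limma), and leaving out single libraries left 7 to 11 called. Sostdc1, a BMP antagonist of the distal nephron, fell from 130 ± 13.6 to 56.8 ± 8.79 CPM (SD, n = 3 each), a log2 fold change of -1.19 ± 0.12. Kcp, which enhances BMP7 signalling although it is grouped here, fell (-1.24 ± 0.17), as did the decoy receptor Bambi (-1.11 ± 0.21) and Crim1 (-0.27 ± 0.08), the last not when Control replicate 3 was left out (adjusted p by edgeR 0.0651). Kcp was at -0.55 on log2(FPKM + 1).

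Genes that hold TGF-beta latent or release it were split, with 7 of 22 higher and 8 lower (median -0.07). Among all tested genes 25.7% were higher and 24.8% lower. Tgm2, a transglutaminase that anchors latent complexes, rose from 286 ± 8.33 to 767 ± 23.8 CPM (SD, n = 3 each), a log2 fold change of 1.42 ± 0.07. Pcsk6, a proprotein convertase, fell (-1.90 ± 0.11). Ltbp4, a latent TGF-beta binding protein of the matrix, stood at 69.9, 60.0 and 56.9 CPM in Control and at 13.9, 15.1 and 9.14 CPM in LPS replicates 1, 2 and 3, a log2 fold change of -2.29 ± 0.17. Ltbp1, of the same family, and Thbs1, an activator of latent TGF-beta, also fell (-1.41 ± 0.11 and -0.87 ± 0.11), and Lrrc32, which tethers latent TGF-beta to cell surfaces, rose (1.05 ± 0.17).

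Genes known to respond to TGF-beta were not uniform. Of 23 tested, 9 rose and 2 fell (median 0.15), beside 25.7% and 24.8% of all tested genes. Junb rose by 2.80 ± 0.09, Timp1, an inhibitor of metalloproteases, by 5.07 ± 0.27, and Sphk1 by 2.60 ± 0.15. Ccn2, a matricellular protein often used as a readout of Smad3, did not pass (0.15 ± 0.09, adjusted p = 0.223), nor did Col1a1 (0.14 ± 0.29, with a negative sign without LPS replicate 1 or Control replicate 3) or Acta2 (-0.28 ± 0.22). Snai2, a transcription factor of mesenchymal change, fell (-1.85 ± 0.32), as did Fn1, which encodes fibronectin (-0.73 ± 0.26). Fn1 did not pass with DESeq2 (adjusted p = 0.0867) or when LPS replicate 2, LPS replicate 3 or Control replicate 1 was left out (adjusted p by edgeR 0.0812, 0.138 and 0.143), and without Control replicate 1 its value was -0.35. On log2(FPKM + 1) Timp1 was at 4.07 and Snai2 at -0.74.

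Genes that respond to BMPs were split, with 2 of 10 tested higher and 5 lower (median -0.29). Among all tested genes 25.7% were higher and 24.8% lower. Id1 and Id3, inhibitors of basic helix-loop-helix factors, rose by 0.82 ± 0.20 and 0.67 ± 0.17, and Id1 stood at 37.4, 70.3 and 58.2 CPM in LPS replicates 1, 2 and 3 against at most 35.5 CPM in Control. Id4 (-0.51 ± 0.09), Hey1 (-2.45 ± 0.51, 99 counts over the Control and 19 over the LPS libraries) and Atoh8 (-0.66 ± 0.22) fell, beside Bambi and Smad6. Hey1 stood at -3.08 without LPS replicate 1, at -0.42 on log2(FPKM + 1) and at -1.62 on log2(FPKM + 0.1). Atoh8 did not pass when LPS replicate 1, LPS replicate 3 or Control replicate 1 was left out (adjusted p by edgeR 0.0707, 0.0954 and 0.111).

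Stress genes known to act upstream of Gdf15 or beside it were higher in 11 of 12 cases and lower in 0 (edgeR, also 0 at an unadjusted p under 0.05 and 0 by DESeq2), with a median log2 fold change of 2.05. Among all tested genes 25.7% were higher and 24.8% lower. The list was chosen with earlier results of these data known, and a link between these genes and Gdf15 was not tested. Ddit3, which encodes the factor CHOP, stood at 8.79, 8.24 and 9.70 CPM in Control and at 33.6, 32.4 and 35.1 CPM in LPS replicates 1, 2 and 3. Egr1 rose by 2.19 ± 0.13, Cdkn1a, a p53 target, by 3.36 ± 0.22 and Atf4 by 0.78 ± 0.10, and Sesn2 did not pass (-0.15 ± 0.10).

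**Figure D4:**
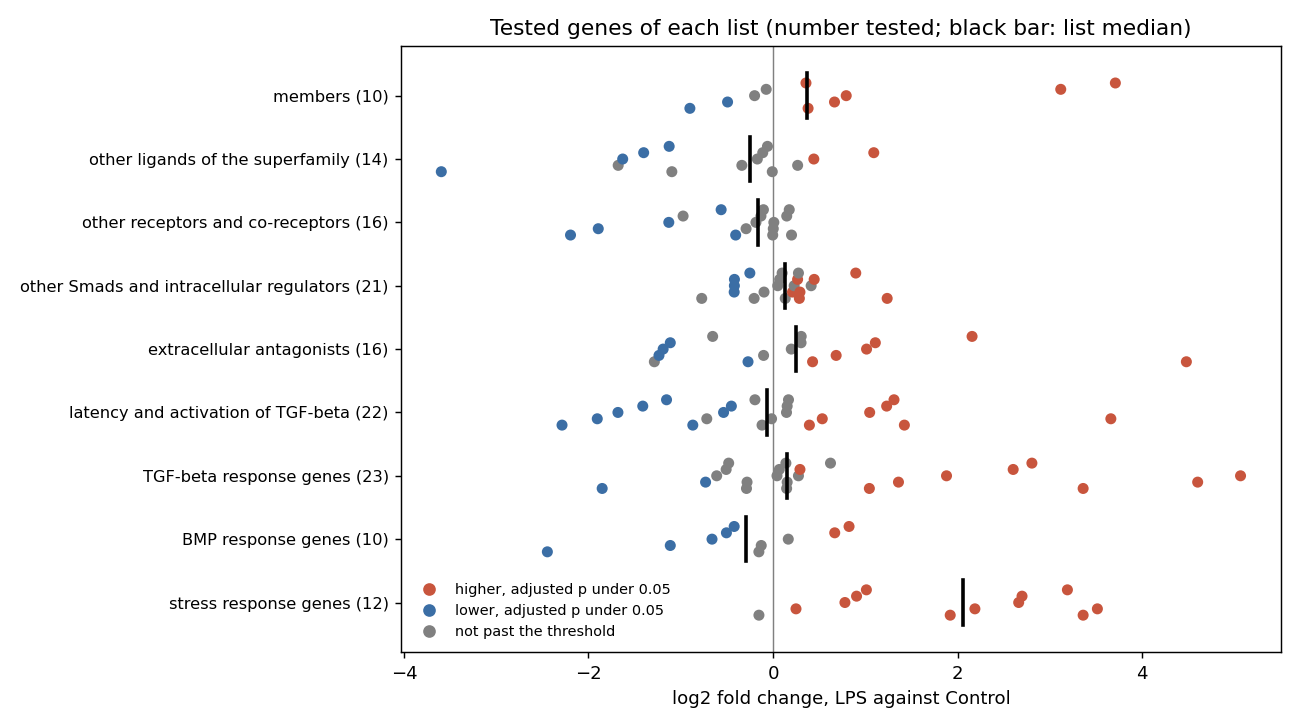
Each point is the log2 fold change of 1 tested gene in a list, coloured by its call, with a black bar at the list median (the first list holds the 10 genes). The stress list sits to the right at a median of 2.05, with Sesn2 below 0, and the other lists have called genes on both sides of 0 except the receptors, where none is higher.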

How the data were processed

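RNA of 6 mouse kidneys was sequenced, 3 LPS and 3 Control, grouped by sample title. The authors deposited raw counts per gene symbol and FPKM values per gene symbol for each library. Per the submitters' processing notes the tools include R 3.2.0, DESeq2, HTSeq, SAMtools and HISAT2, without roles. The genome build, annotation and strand setting were not given in the sources used here. Reads of antisense or overlapping genes therefore cannot be told apart. GENCODE M21 places antisense genes over exons of Tgfb2 and Tgfb3. The total per library bounds counting precision, and n = 3 mice bounds the spread.

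Counts were tested in R 4.3.3 with edgeR 4.0.16 (filterByExpr defaults of 10 and 15 counts, TMM factors, quasi-likelihood test, Benjamini-Hochberg adjustment across all 14219 genes). The SE was taken as |log2 fold change| / √F. CPM are scaled by TMM factors, as mean and SD over 3 libraries. DESeq2 1.42.0 and limma 3.58.1 served for alternatives. The scripts were tested on simulated data. Alternatives were other scalings, filters and tools, log2 FPKM with a pseudocount of 1 or 0.1, the replicate block, omission of seminal vesicle genes (including any gene that exceeded all other libraries over 32-fold in LPS replicate 2), and each library left out. The members, the 8 other gene lists and the marker lists were chosen with earlier results of these data known. The rule for named genes took all members and, per list, the 3 of smallest p, and the other list genes named were chosen after their values were seen. For likeness, the 3 members of smallest p were each compared with genes of at least 10 mean CPM (log2 CPM, prior count 2).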

Additional observations from a re-analysis of the deposited data

How the results depend on the processing

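Under all 16 alternatives the 6 higher genes kept their direction and call, and so did Smad7. Tgfb2 kept its direction, and leaving out single libraries gave -1.05 to -0.62, with the call lost in 3 of the 6 cases, so 1 or 2 of the 10 genes were lower. Other leave-one-out ranges were 3.12 to 3.99 for Inhbb, 3.01 to 3.24 for Gdf15, -0.75 to 0.072 for Tgfb3 and -0.21 to 0.0035 for Bmp7. The sign of Tgfb3 turned without LPS replicate 1 (0.072) and without Control replicate 1 (0.06), and that of Bmp7 without LPS replicate 3 (0.0035). The sign of Col1a1 turned without LPS replicate 1 (-0.11) and without Control replicate 3 (-0.08), within a range of -0.11 to 0.50 over single libraries left out. Leaving out single libraries left 7 to 10 called genes among Smads and regulators (11 with all libraries) and 3 to 5 among receptors (5 with all). Among extracellular antagonists it left 7 to 11 (10 with all). With a mean of at least 1 CPM, which tests fewer genes, 3 receptors were called. Deviations of same-numbered libraries correlated at 0.0478, -0.0535 and -0.00201. LPS replicates 1 and 2 both correlated best with Control replicate 1 (0.0478 and 0.034), and LPS replicate 3 with Control replicate 2 (0.111). With 3 libraries per group these values cannot settle whether the replicate numbers pair the mice. With a replicate block 3414 genes were higher and 3331 lower, against 3658 and 3527 without, and no call of the 10 genes changed. Of the list genes named, Bmp5 and Acvr1c lost their call under the block (adjusted p = 0.0557 and 0.0701, edgeR). Low genes such as Tgfb2, Tgfb3 and Control Inhbb rest on 20 to 137 counts a library, which limits their precision.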
